A study of Mus musculus with 6 samples.

Results

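The axon guidance ligand and receptor families were taken as every probe whose annotated symbol named a class 3 to 7 semaphorin, a plexin, a neuropilin, a slit, a Robo, a netrin, an Unc5 receptor, Dcc, an ephrin or an Eph receptor. This symbol rule used no measured value and gave 65 genes (168 probes) of the 19057 genes on the array, 33 of them ligands (81 probes) and 32 receptors (87 probes). Expression had been measured on 6 Illumina MouseWG-6 v2 arrays of mouse embryos, labelled as embryonic day 9.5. The KO arrays (n = 3) carried surface ectoderm of CBP/p300-/- embryos, and the WT arrays (n = 3) carried lens placode of wild-type embryos, all of mixed FVB and 129 background. Both tissues were cut from eosin-stained sections by laser microdissection. By the labels, each genotype was 1 pool of RNA from 3 embryos and each array held a separate amplification of it, and the p-values below then measure the spread between amplifications of the 2 pools and not between embryos. The study's own text describes its arrays as biological replicates from a later stage, and which description holds for these arrays is not settled by the sources used here. Both targeted proteins, CBP and p300, acetylate lysines of histones and other proteins and help transcription factors to activate genes. The study made its mutants with Cre recombinase acting in the head surface ectoderm. Its array methods name the Pax6-Cre driver, for the later stage, so the driver of the embryos as labelled is not settled either. The tissue name changed together with the genotype, so dissection and genotype cannot be told apart.

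Guidance cues were first described for the way they steer growing axons, and they also act on cell adhesion, sorting and movement in epithelia, mesenchyme and vessels. Secreted class 3 semaphorins act through neuropilin and plexin coreceptors, membrane-bound semaphorins act mostly on plexins directly, slits bind Robo receptors, netrins bind Dcc and Unc5 receptors, and ephrins bind Eph receptors on a neighbouring cell. The lens placode is a thickening of head ectoderm that lies against the optic vesicle and later folds in to form the lens.

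Between 12212 and 17195 of the 45281 probes were above background on an array (a detection p-value under 0.01), and WT replicate 1 had the fewest of these and the highest median scanner intensity (141, against 85.6 to 95.5 on the other arrays). The brightest probe of Crebbp, which encodes CBP, read 7.17, 8.47 and 6.75 on the KO arrays and 7.20, 7.60 and 7.01 on the WT arrays (log2 intensity), and that of Ep300, which encodes p300, read 5.71, 6.49 and 9.94 on the KO arrays and 6.94, 7.84 and 6.81 on the WT arrays. Neither passed the test (0.19 ± 0.50 and 0.18 ± 1.10, SE; limma adjusted p = 0.910 and 0.963). The other tested Crebbp probe differed by 0.11. The other tested Ep300 probe read 7.84, 8.47 and 6.98 on the KO arrays, all above background, and 5.32, 4.67 and 5.51 on the WT arrays, none above it, so that a targeted gene was at least 3.03-fold higher in KO by this probe without passing (adjusted p = 0.0738). Where the probes lie relative to the deleted parts was not examined, so these values check no label. The tissue names were set against marker lists. The 8 lens placode markers had a summed level of 4316 to 5222 on the KO arrays and 8005 to 8980 on the WT arrays (linear normalized intensity). Foxe3 and Pitx3, which mark the committed lens lineage, were above background on no KO array and on all 3 WT arrays. Not all of the list fell: Pax6 (-0.20, limma adjusted p = 0.814) and Six3 (0.15, adjusted p = 0.922) overlapped between the genotypes. Of the 12 surface ectoderm markers 9 were tested, each above background on at least 1 array of each tissue. Of these 9, 8 had a negative difference (3 at an unadjusted limma p under 0.05, none called). The sums over the list were 12080 to 14130 in KO and 18920 to 20670 in WT. By the brightest probe of each untested marker, Krt14 was above background on no array, Trp63 on 2 WT arrays alone and Grhl3 on 1 KO array alone. Of 4 tested optic vesicle markers 3 had a positive difference (median 1.01), and Otx2 was above background on all KO arrays and no WT array (at least 2.03-fold, adjusted p = 0.173). The sums over this list overlapped, at 1646 to 2754 on the KO arrays and 994.9 to 5010 on the WT arrays. By the brightest probe, Hes5, Six6 and Sox1 were above background on no array. Among mesenchyme and neural crest markers, 3 of 10 tested had a negative difference and 7 a positive one, and 1 was called, Alx4, at least 10.7-fold higher in KO (adjusted p = 0.0489). The 5 tested blood markers all had a positive difference (median 1.39 on the log2 scale). Of the 10 endothelial markers 1 was tested, Cldn5, and Cdh5, Emcn, Erg, Flt1, Kdr, Pecam1 and Tie1 were above background on no array. Xist, the RNA made from the inactive X chromosome of female cells, was at least 13.4- to 18.05-fold higher in KO by its 4 probes, while the brightest probe of the Y-linked Eif2s3y had a difference of -1.29 (adjusted p = 0.409); sex is not among the labels.

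Most members of these families were dim. Of the 168 probes, 15 were above background on all 6 arrays, 63 on some of them and 90 on none. A probe was tested where it was above background on all 3 arrays of at least 1 genotype, which left 32 probes of 22 genes, namely 18 probes of 12 ligand genes and 14 probes of 10 receptor genes. Class 3 semaphorins had 3 of 7 genes tested, ephrin-B ligands 3 of 3, plexin B receptors 3 of 3, EphA receptors 2 of 9, EphB receptors 2 of 4 and class 6 semaphorins 2 of 4. Slits, Robo receptors, neuropilins, class 4 and class 5 semaphorins, ephrin-A ligands and plexin A receptors had 1 gene each, and netrins, Unc5 receptors, Dcc, class 7 semaphorins and plexins C and D had none. Among the 43 untested genes, 23 had no probe above background on any array. A probe that passes because 1 genotype is bright is bound to differ, so the counts over the tested probes are given as a description.

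**Figure D1:**
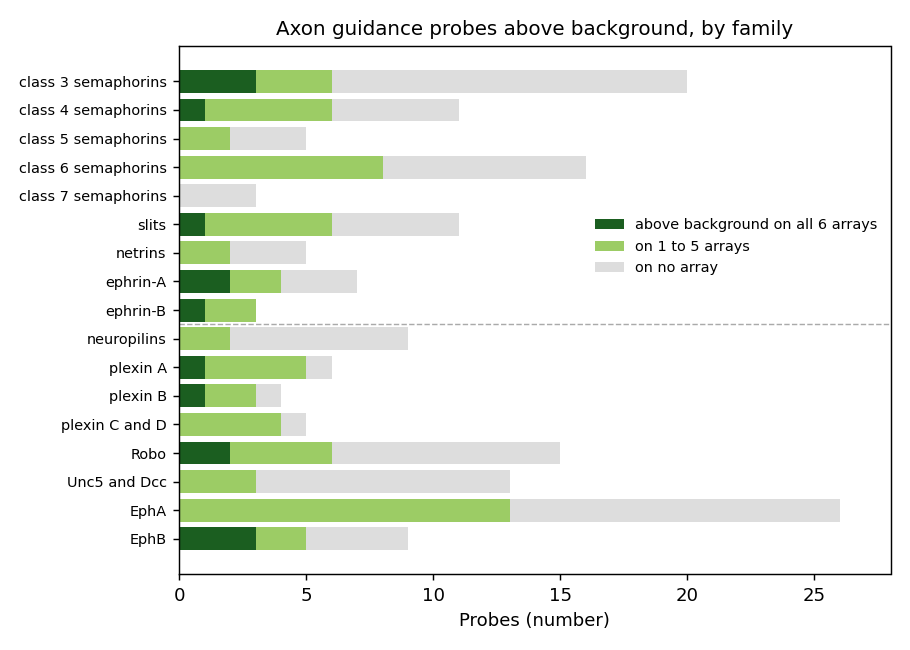
Number of probes of each family (horizontal axis) above background on all 6 arrays, on 1 to 5 arrays or on no array; ligand families lie above the dashed line and receptor families below it. The 90 grey probes outnumber the 15 dark ones, and no dark part is seen for class 5, 6 and 7 semaphorins, netrins, neuropilins, plexins C and D, the Unc5 receptors with Dcc, and EphA receptors.

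The ligands Slit2 and Sema6a fell in KO ectoderm and the coreceptor Nrp1 rose, at an adjusted p under 0.05 and a difference of at least 1 on the log2 scale. These were 2 of the 32 tested probes called lower and 2 called higher. Over all 12697 tested probes, 0.425% were called lower, 0.417% higher and 0.843% in either direction. Ligands and receptors were counted apart, and the difference between them was not tested. Of the 12 tested ligand genes 9 had a negative difference (KO minus WT, brightest tested probe) and 7 of these had an unadjusted limma p under 0.05, while none of the 3 ligand genes with a positive difference did; over all 7141 tested genes 47.7% had a negative difference. Of the 10 tested receptor genes 4 had a negative difference and 6 a positive one, with an unadjusted p under 0.05 for 1 gene that was lower (Robo1) and 2 that were higher (Nrp1 and Plxnb2). Counted by probe, 11 of 32 members were lower at an unadjusted p under 0.05, beside 6.61% of all tested probes, and 3 were higher, beside 8.58%. Among the 15 member probes above background on all 6 arrays, for which the filter forces no difference, 5 were lower and 1 was higher, beside 5.44% and 5.15% of the 8894 such probes on the array. The arrays of KO all lay below those of WT for 11 member probes, beside 10.2% of all tested probes, and above them for 3, beside 11.3%. The median difference over the 22 genes was -0.42, and it was 0.03 over all 7141 tested genes. It was -0.004 when all tested probes of a gene were averaged.

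**Figure D2:**
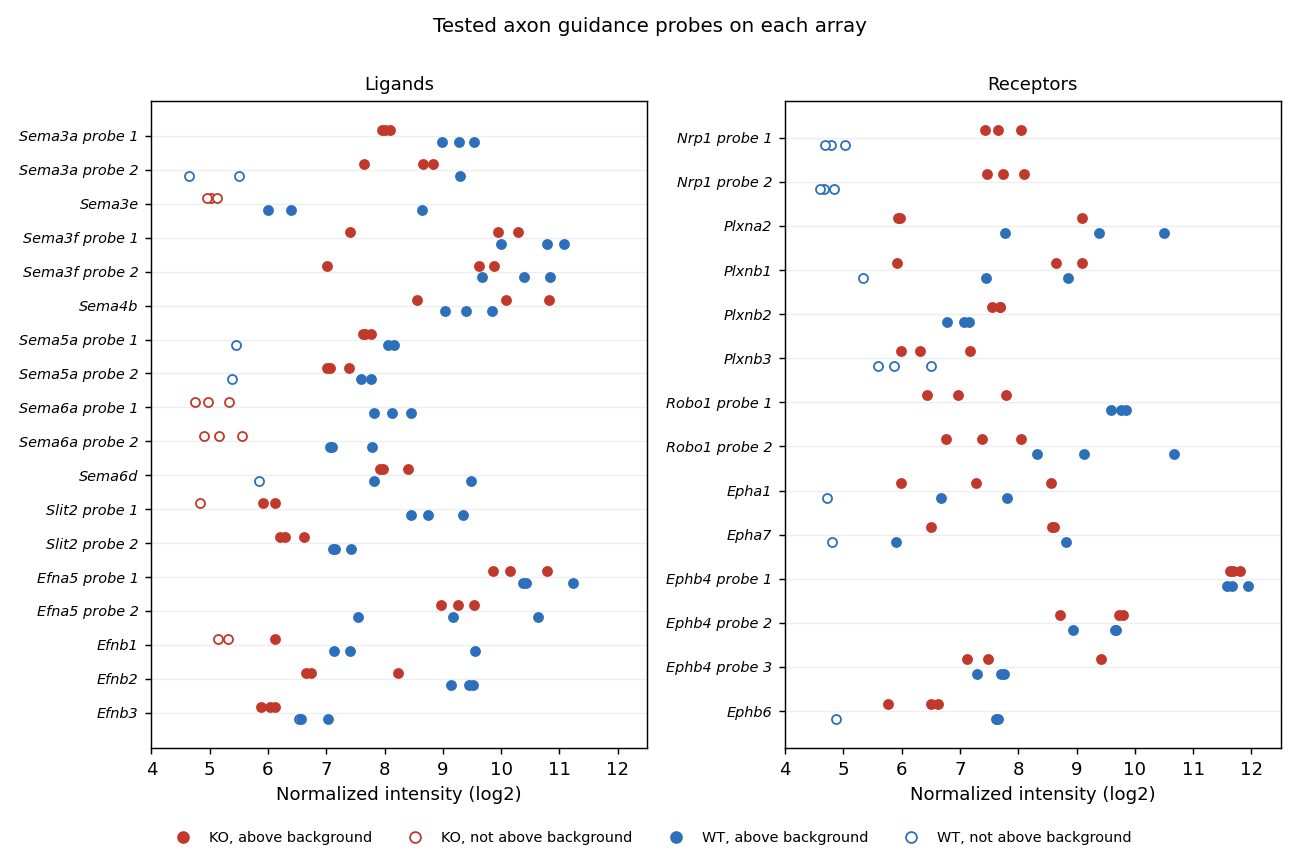
Normalized log2 intensity (horizontal axis) of the 32 tested probes on each of the 3 KO arrays (red, upper row of each probe) and the 3 WT arrays (blue, lower row), with filled points above background and open points not; probe 1 is the brightest of a gene over the 6 arrays. The KO points of Slit2 probe 1 and Sema6a probe 1 lie to the left of all WT points, and those of both Nrp1 probes lie to the right.

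Slit2 is a secreted ligand of Robo receptors and is known for repelling axons and migrating cells. Its brightest tested probe (ILMN_1253797) read 4.83, 6.13 and 5.92 on the KO arrays, against 9.34, 8.45 and 8.75 on the WT arrays. The groups did not overlap, and KO replicate 1 was not above background. The difference was -3.22 ± 0.45 (SE, limma adjusted p = 0.0479), a fitted 9.33-fold, in which KO replicate 1 is a background reading. In scanner units before normalization the probe gave 86.0, 146 and 141 on the KO arrays and 797, 384 and 494 on the WT arrays. A second tested Slit2 probe read 6.62, 6.21 and 6.29 on the KO arrays and 7.16, 7.11 and 7.43 on the WT arrays. This probe also had no overlap, with a smaller difference of -0.86 ± 0.26 that did not pass (adjusted p = 0.211). The other 5 Slit2 probes were not tested, and 3 of them were above background on no array. The remaining ones disagreed, at 4.91, 7.48 and 6.12 on the KO arrays and 4.98, 6.28 and 5.58 on the WT arrays for one, and at 4.95, 5.34 and 4.75 on the KO arrays, none above background, and 5.06, 8.32 and 6.30 on the WT arrays for the other. The call for Slit2 was lost whichever of the 6 arrays was left out (differences of -3.47 to -2.83, adjusted p = 0.0989 to 0.125). Of 9 other processing settings that tested this probe, 3 called it (limma adjusted p = 0.0403 to 0.209). Sema6a and Nrp1 probe 1 were each called in 7 of 9. The lens placode markers moved with Slit2, 7 of the 8 having a negative difference (median -1.82), and their part in the result was not tested. The promoter of Slit2 is shown because it is the slit that could be tested, and because it holds both a GC box and a TATA box.

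Slit2 promoter: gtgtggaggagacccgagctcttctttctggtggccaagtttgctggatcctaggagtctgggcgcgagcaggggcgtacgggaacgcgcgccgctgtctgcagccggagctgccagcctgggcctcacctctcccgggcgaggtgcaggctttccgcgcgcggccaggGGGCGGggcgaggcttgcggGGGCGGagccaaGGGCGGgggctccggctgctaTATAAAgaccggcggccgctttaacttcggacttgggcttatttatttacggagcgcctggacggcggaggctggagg

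The run covers GRCm38.p6 chr5:47982905-47983204 on the + strand, 250 bases before to 50 bases after the RefSeq transcript start, and its GC content is 68.0%. The capitals mark 3 GC boxes (GGGCGG) and a TATA box (TATAAA) at position -28 from the start. Of the 65 member genes 56 matched a RefSeq promoter (72 promoters), as did 19 of the 22 tested genes. GC boxes, searched on both strands, were present in 72.2% of member promoters and in 35.7% of all 32851 promoters of this length. TATA boxes were present in 2.78% of member promoters, only those of Slit2 and Efnb2, both shown here, and in 13.6% of all. Member promoters also had a higher median GC content (64.2%, against 52.7% over all). The cyclic AMP response element TGACGTCA, bound by the CREB factors after which CBP was named, was present in 1.39% of member promoters and 1.79% of all. Its half-site TGACG was present in 13.9% and 20.8%. These are matches of letters and not sites of binding.

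**Figure D3:**
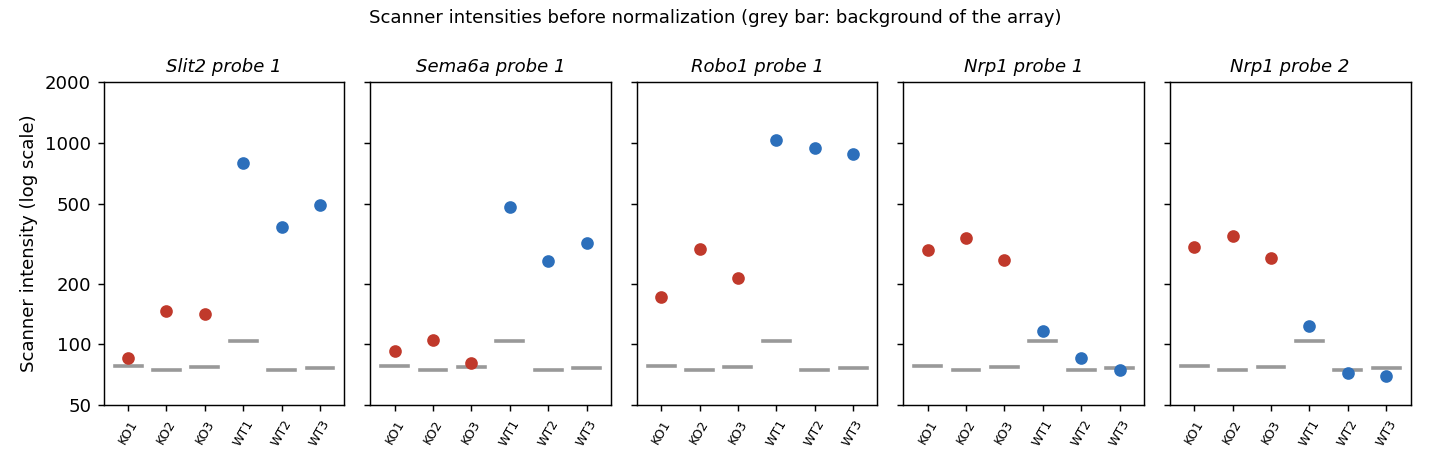
Scanner intensity before normalization (vertical axis, log scale) of the probes of Slit2, Sema6a and Robo1 and of 2 Nrp1 probes on each KO array (red) and WT array (blue), with the median of the probes not above background on that array as a grey bar. Sema6a is near the bar in KO and well above it in WT. Slit2 is near it on KO replicate 1, above it on KO replicates 2 and 3, and farther above it in WT. Nrp1 is near it in WT, and Robo1 is above it on all 6 arrays.

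Sema6a, a membrane-bound semaphorin that acts through plexins A2 and A4, was the other ligand that fell. Its brightest tested probe (ILMN_2705946) read 4.96, 5.33 and 4.74 on the KO arrays, against 8.46, 7.82 and 8.13 on the WT arrays. It was above background on no KO array and on all 3 WT arrays, so only a bound can be given. Sema6a was at least 5.04-fold lower in KO (adjusted p = 0.0243), beside the lower lens placode markers given for Slit2. Its call too was lost whichever array was left out (adjusted p = 0.0694 to 0.110). This bound sets the WT mean against the dimmest signal above background on each KO array, and it depends on the background correction. A second Sema6a probe showed the same detection pattern and read 5.15, 5.56 and 4.90 on the KO arrays and 7.09, 7.79 and 7.07 on the WT arrays. It was at least 2.86-fold lower and missed the threshold (adjusted p = 0.0569). Of the other 3 Sema6a probes, 1 was above background on 2 WT arrays, 1 on 1 WT array and 1 on no array, and none was above background in KO. Sema6d, of the same class and a ligand of plexin A1, read 7.97, 8.41 and 7.93 on the KO arrays and 5.85, 7.82 and 9.49 on the WT arrays. The groups overlapped, and the WT arrays were spread on both sides of KO (difference 0.38 ± 0.89, adjusted p = 0.899).

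Class 3 semaphorins are secreted cues. Sema3a, which binds Nrp1, had a brightest tested probe at 7.96, 8.01 and 8.09 on the KO arrays and 9.28, 8.98 and 9.54 on the WT arrays. The groups did not overlap and the KO arrays differed little among themselves, but the difference of -1.25 ± 0.27 did not pass (adjusted p = 0.106). The other tested Sema3a probe went the opposite way, at 8.84, 8.66 and 7.64 on the KO arrays and 9.30, 4.65 and 5.50 on the WT arrays. It was above background on WT replicate 1 alone among the WT arrays, and its interval was wide (1.90, 95% interval -1.05 to 4.85). The direction of Sema3a therefore differs between its probes.

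Sema3e, which can bind plexin D1 without a neuropilin, read 5.02, 4.95 and 5.12 on the KO arrays, where it was never above background, and 8.65, 6.40 and 6.00 on the WT arrays. It was at least 2.32-fold lower in KO without passing (adjusted p = 0.262), and WT replicate 1 stood far above the other WT arrays. Another Sema3e probe, untested, was above background on WT replicate 2 alone (8.64, against 5.11 and 4.68 on WT replicates 1 and 3). The remaining Sema3e probes were above background on no array. Sema3f, which prefers Nrp2, read 7.40, 10.29 and 9.95 on the KO arrays and 10.79, 11.07 and 9.99 on the WT arrays. Its second probe gave the same picture on each array, within 0.24 to 0.40 on the log2 scale of the first. In both probes the low KO mean came mostly from KO replicate 1, and the groups overlapped (-1.40 ± 0.81, adjusted p = 0.494; -1.46 ± 0.82, adjusted p = 0.481). Without that replicate the first probe differed by -0.50. Sema3b, Sema3c, Sema3d and Sema3g had no probe above background on any array.

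Class 4 and class 5 semaphorins are membrane-bound. Sema4b read 8.56, 10.09 and 10.82 on the KO arrays and 9.04, 9.85 and 9.40 on the WT arrays, with overlapping groups (0.39 ± 0.61, adjusted p = 0.834). Sema5a, which carries thrombospondin repeats and binds plexin B3, read 7.63, 7.77 and 7.66 on the KO arrays and 5.45, 8.06 and 8.15 on the WT arrays. WT replicate 1 was not above background there, and the other WT arrays were above all KO arrays. Sema5a probe 1 had a difference of 0.46 with all arrays and of -0.42 without that array, and the second probe turned in the same way (0.24 with all arrays, -0.53 without WT replicate 1).

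All 3 ephrin-B genes had lower KO means, and in each the normalized values of the genotypes did not overlap. Over all tested probes, 10.2% lay wholly lower in KO. Ephrin-B ligands span the membrane and can signal back into the cell that carries them. Efnb2, the main partner of the EphB4 receptor, read 6.65, 6.74 and 8.23 on the KO arrays and 9.52, 9.15 and 9.46 on the WT arrays. It was above background on all 6 arrays, and the difference of -2.17 ± 0.48 did not pass (adjusted p = 0.114). KO replicate 3 was the highest of the KO arrays and still below WT. Efnb1 read 6.12, 5.31 and 5.14 on the KO arrays and 7.40, 9.55 and 7.13 on the WT arrays, and it was above background on 1 KO array (-2.50 ± 0.70, adjusted p = 0.178). Efnb1 lies on the X chromosome, and Xist differed between the genotypes as given above. The part of sex in the Efnb1 value was not tested. Efnb3 read 6.12, 5.88 and 6.04 on the KO arrays and 6.53, 7.04 and 6.57 on the WT arrays, a smaller gap (-0.70 ± 0.27, adjusted p = 0.300). It was above background on all 3 KO arrays but on only 2 WT arrays. In scanner units before normalization its groups overlapped, at 152, 133 and 148 on the KO arrays and 214, 174 and 135 on the WT arrays. The Efnb2 promoter is shown as that of the ephrin-B gene measured on every array.

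Efnb2 promoter: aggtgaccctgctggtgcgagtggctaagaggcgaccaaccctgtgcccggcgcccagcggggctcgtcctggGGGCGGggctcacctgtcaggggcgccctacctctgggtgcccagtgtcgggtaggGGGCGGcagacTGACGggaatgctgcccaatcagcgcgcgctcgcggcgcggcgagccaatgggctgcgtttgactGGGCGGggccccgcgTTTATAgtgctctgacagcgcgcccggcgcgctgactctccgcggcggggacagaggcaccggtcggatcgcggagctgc

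This run covers GRCm38.p6 chr8:8661193-8661492 on the - strand. The capitals mark 3 GC boxes, a half-site TGACG at position -110 and a TATA box read on the opposite strand at position -30.

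Efna5, an ephrin-A held in the membrane by a lipid anchor, was measured on all arrays. Its brightest probe read 9.86, 10.79 and 10.15 on the KO arrays and 10.37, 10.42 and 11.24 on the WT arrays, with overlap (-0.41 ± 0.39, adjusted p = 0.708). The second probe read 9.26, 8.97 and 9.53 on the KO arrays and 7.54, 9.17 and 10.63 on the WT arrays. Its difference of 0.14 had the opposite sign, and WT replicate 1 was low in this probe and not in the first.

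**Figure D4:**
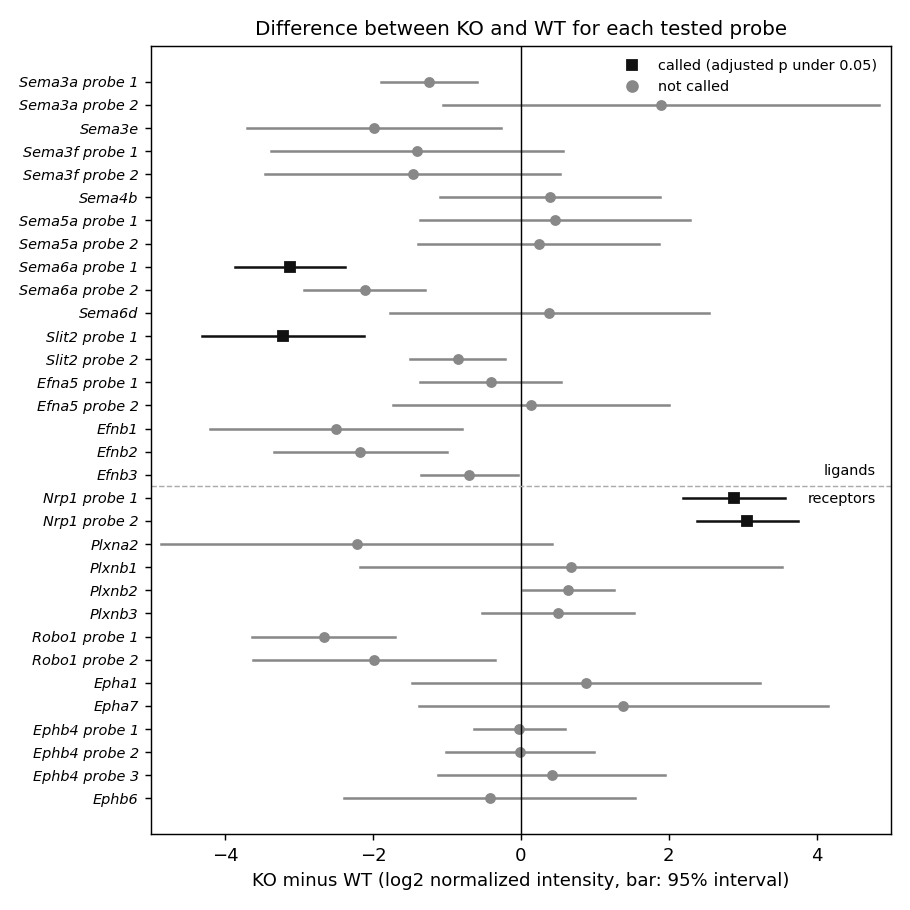
Difference between KO and WT (log2 normalized intensity, horizontal axis) of each tested probe with its 95% interval; ligands lie above the dashed line and receptors below it, and black squares mark the 4 called probes; values of probes not above background in 1 genotype are fitted and not exact sizes. Slit2 (-3.22) and Sema6a (-3.12) lie farthest to the left and the Nrp1 probes (2.88 and 3.06) farthest to the right, while the Ephb4 probe with the narrowest interval is centred on -0.02.

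Among the receptors, Nrp1 rose in KO. Nrp1 is the coreceptor through which Sema3a acts with plexin A receptors, and it also binds vascular endothelial growth factor on endothelial cells. Probe 1 (ILMN_1237197) read 7.66, 8.06 and 7.44 on the KO arrays, against 4.79, 5.02 and 4.69 on the WT arrays. Probe 2 (ILMN_2669912) read 7.74, 8.10 and 7.47 on the KO arrays, against 4.84, 4.67 and 4.60 on the WT arrays. The 2 probes differed by at most 0.35 on any array, and both were above background on all KO arrays and on no WT array. Nrp1 was therefore at least 2.93-fold higher in KO by probe 1 (adjusted p = 0.0243) and at least 3.04-fold by probe 2 (adjusted p = 0.0218). The remaining Nrp1 probe was above background on no array. Both probes lost the call whichever array was left out, at differences of 2.72 to 3.03 for probe 1 (adjusted p = 0.0748 to 0.108) and 2.90 to 3.21 for probe 2 (adjusted p = 0.0641 to 0.0977).

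Some markers of other cell types moved with Nrp1. The summed level of the 10 endothelial markers was 651.7 to 1081 on the KO arrays and 319.1 to 350.3 on the WT arrays, and the gap lay in Cldn5 and, on KO replicate 3, in Esam, while each of the other 8 was above background on at most 1 array. Cldn5, a tight junction protein of endothelium, was above background on all KO arrays and no WT array, at 9.61, 8.999 and 7.94 on the KO arrays and 6.33, 4.61 and 4.61 on the WT arrays, without passing (at least 6.43-fold, adjusted p = 0.0711). The blood markers summed to 13740 to 14420 on the KO arrays and 5769 to 7516 on the WT arrays, and those of mesenchyme and neural crest to 2798 to 3337 on the KO arrays and 2638 to 4633 on the WT arrays. These last sums overlap, but single markers differed in both directions: Alx4 was called higher, and Col1a1 (2.996), Lum (at least 2.70-fold) and Col3a1 (2.35) had positive differences and Snai2 (-2.86) and Pdgfra (-2.21) negative ones without passing (adjusted p = 0.0871 to 0.152). The part of such cells in the Nrp1 result was not tested, and more cells of a type cannot be told apart from more RNA in each cell. All 6 probes of Nrp2, the neuropilin that Sema3f prefers, were above background on no array. The Nrp1 promoter is shown as that of the receptor that rose.

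Nrp1 promoter: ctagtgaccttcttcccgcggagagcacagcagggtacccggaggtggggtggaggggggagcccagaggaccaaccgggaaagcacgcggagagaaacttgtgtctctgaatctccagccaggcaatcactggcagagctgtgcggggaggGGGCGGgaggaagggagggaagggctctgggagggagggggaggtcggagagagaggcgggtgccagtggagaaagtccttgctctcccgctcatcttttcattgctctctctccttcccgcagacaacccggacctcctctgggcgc

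It covers GRCm38.p6 chr8:128358823-128359122 on the + strand, with 1 GC box in capitals at position -98 and none of the other motifs. Its GC content was 64.0%.

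Robo1 is a receptor for Slit2 and was the receptor with the lowest difference. Its brightest probe (ILMN_1244484) read 6.43, 7.79 and 6.97 on the KO arrays, against 9.76, 9.84 and 9.60 on the WT arrays. It was above background on every array and the groups were far apart, but at -2.67 ± 0.40 the adjusted p of 0.0519 lay just past the threshold. It passed with the deposited processed values (adjusted p = 0.0426) and with an intensity trend in the variance (adjusted p = 0.0443), but not in the other 8 settings (adjusted p up to 0.207) nor with any of the 6 arrays left out (0.104 to 0.149). The second probe read 6.76, 8.05 and 7.38 on the KO arrays and 8.33, 10.68 and 9.13 on the WT arrays, again without overlap (-1.98 ± 0.67, adjusted p = 0.246). In scanner units the brightest probe gave 171, 298 and 214 on the KO arrays and 1038, 939 and 883 on the WT arrays. KO replicate 2 was the highest KO array in both Robo1 probes. By both tested probes of each, Slit2 and its receptor Robo1 were thus dimmer on every KO array than on any WT array. The untested probes do not all share this. A Robo1 probe overlapped, at 5.19, 7.87 and 5.10 on the KO arrays and 4.88, 7.57 and 7.39 on the WT arrays. Another was above background on no array, and the untested Slit2 probes disagreed as given above. Among the other Robo genes, 7 probes of Robo2 and 4 of Robo4 were not tested, and no Robo4 probe was above background.

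Robo1 promoter: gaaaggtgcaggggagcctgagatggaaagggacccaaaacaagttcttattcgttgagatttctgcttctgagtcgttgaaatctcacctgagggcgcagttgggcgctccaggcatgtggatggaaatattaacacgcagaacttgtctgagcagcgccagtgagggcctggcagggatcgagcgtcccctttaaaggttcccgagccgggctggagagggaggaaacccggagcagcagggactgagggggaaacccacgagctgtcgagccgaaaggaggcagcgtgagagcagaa

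The Robo1 promoter, shown beside that of its ligand, covers GRCm38.p6 chr16:72662899-72663198 on the + strand. It holds none of the 4 motifs searched, which is why it has no capitals, and its GC content of 57.0% is the lowest of the 4 promoters shown. No match says only that these letters are not in this window.

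Plexins are the signalling receptors of semaphorins. Plxna2, a receptor of Sema6a, read 9.09, 5.96 and 5.93 on the KO arrays and 7.77, 10.50 and 9.39 on the WT arrays. Its difference of -2.22 ± 1.09 rested on a wide spread with overlap (adjusted p = 0.413), KO replicate 1 lying above WT replicate 1. A second Plxna2 probe, untested, read 5.72, 5.26 and 5.77 on the KO arrays and 6.39, 8.85 and 8.32 on the WT arrays. Its groups did not overlap, and it was above background on 1 KO array and 2 WT arrays. The remaining Plxna2 probe was above background on no array. Plxnb2, a receptor of class 4 semaphorins, read 7.68, 7.55 and 7.69 on the KO arrays and 7.16, 7.07 and 6.77 on the WT arrays. This was a small difference without overlap (0.64, 95% interval 0.03 to 1.25, adjusted p = 0.309). Plxnb1, the receptor of Sema4d, read 8.64, 9.10 and 5.92 on the KO arrays and 7.46, 8.85 and 5.33 on the WT arrays. Replicate 3 was low in both genotypes, and the groups overlapped (0.68 ± 1.17, adjusted p = 0.854). Plxnb3, the X-linked receptor of Sema5a, was above background on all KO arrays and no WT array but read only 7.17, 6.31 and 6.00 on the KO arrays and 6.50, 5.60 and 5.87 on the WT arrays. The bound taken on the means was 1.25-fold higher in KO. However, WT replicate 1 read above KO replicates 2 and 3, and the 95% interval was -0.53 to 1.53 (adjusted p = 0.665), so no rise is shown. Plxnb3 too stands beside the Xist difference between the genotypes.

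Eph receptors are tyrosine kinases. Ephb4, the receptor of Efnb2, was above background on all 6 arrays, at 11.81, 11.64 and 11.68 on the KO arrays and 11.58, 11.66 and 11.95 on the WT arrays. Its difference of -0.02 had a 95% interval of -0.63 to 0.59, so a difference of more than 1 on the log2 scale lies outside the interval. The differences of the other Ephb4 probes were -0.01 and 0.42, and the groups overlapped in all 3 probes. Ephb6, an Eph family member without kinase activity, read 6.50, 6.62 and 5.76 on the KO arrays and 4.87, 7.66 and 7.62 on the WT arrays (-0.42 ± 0.81, adjusted p = 0.869). As in Sema5a, the dim array was WT replicate 1. Epha1 read 7.27, 8.56 and 6.00 on the KO arrays and 7.80, 6.68 and 4.71 on the WT arrays (0.88 ± 0.97, adjusted p = 0.750). Epha7 read 8.61, 8.58 and 6.51 on the KO arrays and 4.81, 5.91 and 8.82 on the WT arrays (1.39 ± 1.14, adjusted p = 0.652). In Epha1 and Epha7 the range within each genotype was wider than the gap between the means, and a difference was not detectable with 3 arrays of each genotype.

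Each test was made against the spread between arrays of a genotype. Over the 32 tested member probes the median SD was 0.50 in KO and 0.48 in WT, beside 0.47 and 0.59 over all tested probes. No array was the lowest for most members, but KO replicate 1 gave the lowest value of the 6 arrays for 10 of the 32 probes and WT replicate 1 for 7, while WT replicates 2 and 3 gave the highest for 9 each. For 10 pairs of probes of the same gene, the smallest disagreement in the difference was 0.009 (Ephb4) and the widest 3.15 (Sema3a), followed by 2.36 for the 2 Slit2 probes. Which exons the probes of a gene lie in was not examined.

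Other genes of the pathway were taken from a list of 88 coreceptors, further cues and signalling proteins, of which 81 were on the array and 38 were tested. By the brightest probe, 18 had a negative difference and 20 a positive one (median 0.10), and 1 was called. Cxcl12, a chemokine that also guides axons and migrating cells, fell, at 7.93, 8.44 and 9.13 on the KO arrays against 11.29, 11.12 and 10.88 on the WT arrays (-2.60 ± 0.38, adjusted p = 0.0489). Its adjusted p was 0.0922 to 0.159 when 1 array was left out. Cxcl12 was called in 2 of 10 other processing settings (limma adjusted p = 0.020 to 0.209). At an unadjusted p under 0.05 there were 5 lower and 2 higher among the 38, beside 6.61% lower and 8.58% higher of all tested probes. Flrt2, a membrane protein that binds Unc5 receptors, read 9.31, 9.03 and 9.68 on the KO arrays and 10.996, 10.83 and 11.10 on the WT arrays (-1.63 ± 0.28, adjusted p = 0.0692). The others with the largest differences were Mical1, an oxidase that acts downstream of plexins (-1.88, adjusted p = 0.456), Cdon, a coreceptor of hedgehog and netrin signalling (-1.55, adjusted p = 0.324), and Ablim1, an actin-binding protein that was above background on no KO array (at least 1.99-fold lower, adjusted p = 0.0908).

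Neo1, the neogenin receptor related to Dcc, disagreed between its probes. Its brightest probe read 8.65, 8.92 and 7.82 on the KO arrays and 9.61, 9.55 and 8.43 on the WT arrays, with overlap (-0.73 ± 0.47, adjusted p = 0.542). Another Neo1 probe was above background on all KO arrays and on no WT array, at 8.11, 8.28 and 7.34 on the KO arrays against 5.02, 5.39 and 4.99 on the WT arrays (at least 3.35-fold higher, adjusted p = 0.0359, and 0.0860 to 0.130 when 1 array was left out). No single direction can be given for the gene. In the 31 tested signalling genes downstream of the receptors, 12 differences were negative and 19 positive, with none called.

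**Figure D5:**
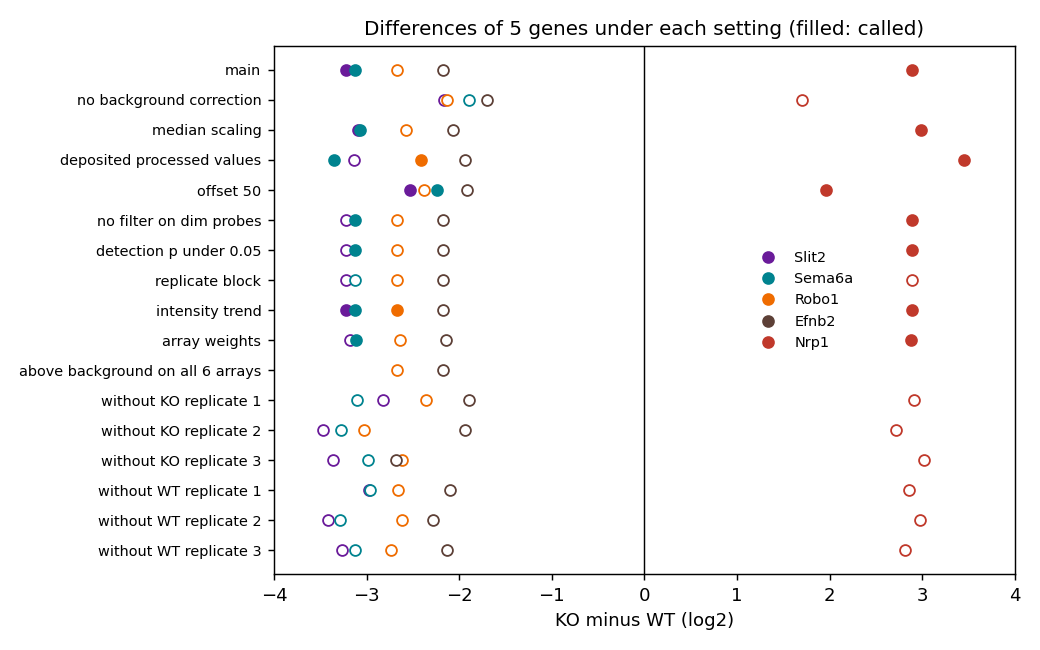
Difference between KO and WT (log2, horizontal axis) of the brightest tested probe of 5 genes under each processing setting (rows), filled where the probe was called. Every point kept its side of 0; Nrp1 is between 1.71 and 3.45, Slit2 between -3.47 and -2.17, and no point is filled where an array was left out. Sema6a, Slit2 and Nrp1 have no point in the row for probes above background on all 6 arrays.

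The size of the called differences changed with the background correction. Without it, Slit2 differed by -2.17 (adjusted p = 0.0623), Sema6a by -1.90 (adjusted p = 0.0545) and Nrp1 probe 1 by 1.71 (adjusted p = 0.0571), the directions being as before.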

How the data were processed

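Microdissected ectoderm of KO and WT embryos was profiled on 6 bead arrays, 3 per genotype, all on 1 BeadChip. The authors deposited the summarised scanner intensity of each probe, not normalized between arrays. Beside it they deposited a detection p-value against negative control beads, a bead count per probe (median 43 to 44) and a score, the bead standard error. The authors' processed intensities were cubic spline normalized in GenomeStudio (no version stated) and served as an alternative. They were linear and background-subtracted, with no centring of genes. The columns had negative values for 27.2% to 27.3% of probes and medians of 15.9 to 16.0.

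Background was corrected with limma 3.58.1 (R 4.3.3) by normexp from the detection p-values, with an offset of 16, and the log2 values were quantile normalized. Probes with a detection p under 0.01 on all 3 arrays of 1 genotype or more were tested (lmFit, then eBayes with 2.15 prior and 4 residual degrees of freedom), two-sided, KO minus WT, with Benjamini-Hochberg adjustment over all 12697. A call needed an adjusted p under 0.05 and an absolute difference of at least 1. limma took the place of GenomeStudio's test and was tested on simulated data. For a bound, each array of the dimmer genotype was set to its dimmest signal above background, or to the probe's value where higher.

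Symbols came from the platform annotation (1 for 34885 probes, several for 18, none for 10378), and all 168 member probes matched a current gene table. The members and lists were chosen with earlier results of these data known. Named were called members, the 12 largest differences not called, the brightest tested member of each family, genes whose probes disagreed or were above background in 1 genotype only, and of the pathway list those called and the 4 largest. Alternatives varied background correction, normalization, source of values, offset, filter, replicate block, variance trend, array weights and single arrays.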

Additional observations from a re-analysis of the deposited data

How the results depend on the processing

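All 6 alternatives that left out 1 array lost every member call (0 lower and 0 higher, against 2 and 2), and the all-probe counts of 54 lower and 53 higher became 0 and 0 to 3; at an unadjusted limma p under 0.05 there were still 7 to 12 member probes lower and 2 to 3 higher, and 684 to 840 lower and 807 to 1188 higher over all probes. Member calls lower were 0 without background correction, 1 without the filter, 1 at a detection p under 0.05 and 1 with array weights; calls higher were 1 without background correction. All probes called lower numbered 17 without background correction, 29 with median scaling, 26 with offset 50 and 21 at a detection p under 0.05, and called higher 19, 27 (offset 50), 24 (detection p under 0.05) and 30 (no filter). Without the filter 6 members were higher at an unadjusted p under 0.05.

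A setting chosen after seeing the data kept only probes above background on all 6 arrays: 0 member calls lower and 0 higher, 2 and 0 over all probes, and 5 members lower and 1 higher at an unadjusted p under 0.05. The member median of -0.42 was -1.05 under it, -0.086 without the filter, -0.0038 with probes averaged and -0.68 to -0.20 with 1 array left out. With the 4 genes above background in 1 genotype only set to their bound it was -0.42. None of these genes crossed the middle of the ranking, so this median could not move.

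Same-numbered arrays did not deviate together (correlations of -0.0135, 0.00126 and -0.0261). These values show no shared deviation, but they cannot show whether same-numbered samples were handled together. With the replicate block, 0 member probes and 0 of all probes were called in either direction.

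Of 39 named probes, 29 kept their sign under every alternative, among them the called members, Robo1 and the ephrin-B genes. Leaving out 1 array turned Ephb4 (-0.096 to 0.088), its other probes (-0.25 to 0.34 and -0.29 to 0.86), Ephb6 (-1.35 to 0.048), Plxnb1 (-0.27 to 1.66), Sema4b (-0.10 to 1.03), Sema5a (-0.42 to 0.93) and its second probe (-0.53 to 0.67), Sema6d (-0.55 to 1.27) and the second Efna5 probe (-0.65 to 0.90). The cause of these changes was not tested beyond there being fewer arrays or probes.

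Signal over background limits these families: 90 of 168 probes were never above it and a dim probe gives only a bound, so no member is called absent. WT replicate 1 had the brightest background and the fewest probes above it, and was the dim array in Sema5a, Sema6d, Ephb6 and Epha7.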

Other observations

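Some members that were too unevenly detected to be tested still read far above background on single arrays. Plxnd1, the receptor of Sema3e, had a probe at 9.56, 7.91 and 5.03 on the KO arrays and 4.98, 4.79 and 12.11 on the WT arrays (log2 intensity), and another Plxnd1 probe was above background on 0 KO arrays and 2 WT arrays. Plxna3, an X-linked plexin, read 5.30, 5.09 and 5.23 on the KO arrays, none of them above background, and 9.17, 6.86 and 5.75 on the WT arrays, of which 2 were above background. Ephb1 read 5.47, 6.68 and 4.61 on the KO arrays and 5.20, 8.05 and 8.98 on the WT arrays.

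The 2 probes of the netrin Ntn3 were above background on 2 KO arrays each, and 1 of them on a WT array as well, with the brighter probe at 9.46, 5.32 and 7.17 on the KO arrays and 4.89, 5.78 and 8.39 on the WT arrays. Unc5c, a netrin receptor, was bright on KO replicate 3 alone among the KO arrays in 2 of its probes, which read 8.51 and 8.48 there and 4.67 to 4.81 on the other KO arrays. Sema4g read 5.28, 7.23 and 7.22 on the KO arrays and 4.75, 5.67 and 4.81 on the WT arrays, above background on 2 KO arrays and no WT array. Of the 136 untested member probes, 22 were above background on 1 array, 17 on 2 arrays and 7 on 3 arrays.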
